A study of Homo sapiens with 36 samples.

Results

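The genes described here are the human protein-coding ZNF genes that lie outside chromosome 19 and were expressed in HEK293T cells. They were taken from the deposited gene annotation by 3 conditions: a symbol made of ZNF, a number and at most 1 letter, a first annotated exon on any chromosome other than 19, and a mean CPM (counts scaled to the depth of each library) of at least 1 over the 9 input libraries. The rule found 229 genes. They are part of 509 protein-coding genes with such symbols and of 60675 genes in the count table. Of the 262 that lie outside chromosome 19, 33 fell under the CPM minimum. The members nearest to it were ZNF365 at a mean input CPM of 1.015 and ZNF501 at 1.341, and the genes just outside it were ZNF572 at 0.993 and ZNF750 at 0.999. The members sit on 20 chromosomes, with most on chromosome 16 (31 genes), chromosome 7 (28) and chromosome 1 (18).

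The study used HEK293T, a human embryonic kidney line, in 3 derivatives named YTHDF1-ADAR, YTHDF2-ADAR and YTHDF3-ADAR, and all cells received 1 ug/mL doxycycline for 24 h to induce the fusion protein. Each line gave 4 groups of 3 libraries: RNA immunoprecipitated (RIP) with an antibody to endogenous YTHDF1, to endogenous YTHDF2 or to endogenous YTHDF3, and RNA from a part of the lysate (input). No group lacks the fusion or the drug, so every comparison is among cells that express a YTHDF-ADAR protein. The labels do not say whether a line is 1 clone, nor whether the 3 replicates of a group were separate cultures, so p-values measure only the spread between these libraries.

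C2H2 zinc finger proteins are the largest family of human transcription factors. Each finger holds a zinc ion through a pair of cysteines and a pair of histidines and contacts a few bases of DNA. Many carry a KRAB domain, which recruits TRIM28 and, through it, histone methylation that silences genes and retroelements. YTHDF1, YTHDF2 and YTHDF3 are cytoplasmic readers that bind messenger RNA carrying N6-methyladenosine, a mark common in long last exons, where ZNF genes encode their finger arrays. ADAR converts adenosine to inosine, read as guanosine, so a reader fused to it leaves edits on the RNAs it meets.

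The 36 libraries held 12.5 to 37.5 M counts on genes. The 6 libraries made with the YTHDF1 antibody outside YTHDF1-ADAR cells stood apart from the other 30. Their depth was 12.5 to 16.3 M counts, and protein-coding genes took 54.1 to 74.2% of their counts against 71.5 to 92.4% elsewhere. Small nucleolar RNAs took 0.696 to 4.35% against 0.036 to 0.564%, mitochondrial mRNAs 3.15 to 8.58% against 0.561 to 3.06%, and olfactory receptor genes, which kidney cells should not express, summed to 32.3 to 54.3 CPM against 2.82 to 18.5. The part of these features in the results below was not tested, and results that rest on the 6 libraries are given apart. Of the other 30, YTHDF2 RIP replicate 3 of YTHDF1-ADAR cells differed from its group. It had 15.9 M counts against 27.2 and 26.6 M, 82.8% protein-coding counts against 90.0 and 90.3%, 0.564% small nucleolar RNA against 0.155 and 0.115%, and olfactory receptor genes at 18.5 CPM against 7.54 and 6.24. The remaining 29 reached at most 0.348% small nucleolar RNA and 15.5 CPM of olfactory receptor genes. Of 7 HEK293T markers, VIM (238 to 369 CPM), NEFM (260 to 1640 CPM) and NEFL (156 to 601 CPM) were high in the 9 inputs, KRT8 (17.8 to 36.2 CPM) and KRT18 (23.1 to 46.8 CPM) lower, and the kidney markers PAX2 (3.8 to 7.89 CPM) and LHX1 (3.11 to 5.41 CPM) low. Among markers of other cells the fibroblast gene COL1A1 lay at 13.8 to 30.2 CPM, close to KRT8, and the red cell gene HBA1 at 2.59 to 8.31 CPM, close to PAX2. COL3A1, DCN, ALB, APOA1 and PECAM1 were at no more than 1.36 CPM, and PTPRC and HBB, which define leukocytes and red cells, at 0 in all 9.

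ZNF transcripts took up to 2.01% of all counts in YTHDF1 RIP of the YTHDF1-ADAR line and under 1% in every input. The share of the 229 genes was 1.56 to 2.01% in the 3 YTHDF1 RIP libraries of YTHDF1-ADAR cells and 0.717 to 0.805% in the 3 inputs of that line, so the groups did not overlap. Over all 3 lines the share ran from 0.92 to 1.01% with the YTHDF2 antibody, from 1.04 to 1.2% with the YTHDF3 antibody and from 0.662 to 0.805% for input. YTHDF1 RIP gave 0.822 to 0.898% in YTHDF2-ADAR cells, above the 0.662 to 0.738% of their inputs, and 0.687 to 0.872% in YTHDF3-ADAR cells, which overlapped their inputs at 0.669 to 0.715%.

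**Figure D1:**
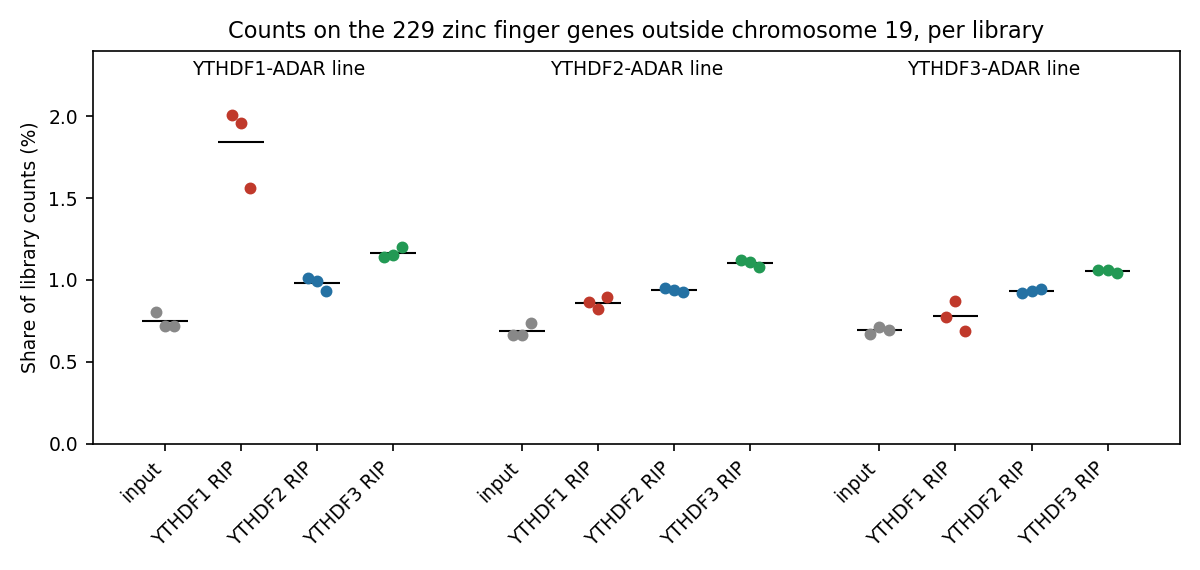
Share of all counts taken by the 229 ZNF genes outside chromosome 19 (percent, y axis) in each of the 36 libraries, by line and RIP (x axis); each point is a library and bars are group means. The 3 YTHDF1 RIP libraries of YTHDF1-ADAR cells lie at 1.56 to 2.01%, above the other 33.

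In YTHDF1 RIP of YTHDF1-ADAR cells most ZNF genes rose against input. By edgeR's quasi-likelihood test with Benjamini-Hochberg adjustment over 31849 genes, 166 of the 229 members were higher and 21 lower, beside 20.6% and 28.8% of all tested genes. Their median log2 fold change was 0.97 against -0.28 over all tested genes. The 13665 protein-coding genes with an input CPM of at least 1 had 4327 higher, 5580 lower and a median of -0.18. ZNF genes on chromosome 19, by the same rule, had 152 of 187 higher, 12 lower and a median of 1.17. Scaling to the summed counts of the 13 mitochondrial mRNAs in place of TMM (edgeR's trimmed-mean scaling) shifted all genes down by 1.14 on the log2 scale: 9 members were then called higher and 36 lower, with a member median of -0.13. Relative to all genes the members stood 1.30 higher under that scaling and 1.25 higher under TMM, so the direction of single calls here is relative to the bulk of RNA in the library. With counts scaled to library totals 179 members were higher and 17 lower. That scaling shifted all genes by 0.15, and the members stood 1.28 above the median of all genes.

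The same antibody gave another picture in the other 2 lines. In YTHDF2-ADAR cells 52 members were higher in YTHDF1 RIP than in input and 87 lower, beside 41.8% and 33.4% of all tested genes, with a member median of -0.13. In YTHDF3-ADAR cells 51 were higher and 82 lower, beside 40.8% and 32.4%, with a median of -0.16. These splits depended on the scaling: with counts scaled to library totals they were 111 higher and 29 lower in YTHDF2-ADAR cells, and 88 and 38 in YTHDF3-ADAR cells. That scaling shifted the median of all tested genes by 0.52 and 0.33 on the log2 scale. The member median minus that of all genes was -0.32 and -0.36, against -0.33 and -0.37 under TMM. Leaving out YTHDF1 RIP replicate 2, input replicate 1 or input replicate 2 of YTHDF2-ADAR cells lowered the higher calls there to 27 each time. In YTHDF3-ADAR cells they fell to 29 without YTHDF1 RIP replicate 1, and to 27 without YTHDF1 RIP replicate 2 or without input replicate 1. Across the 3 lines, which share no libraries, 31 members (13.5%) were higher in every line, beside 3.37% of all tested genes and 3.78% of the protein-coding genes, and 9 (3.93%) were lower in every line, beside 15.1% and 27.4%. Another 47 (20.5%) rose in YTHDF1-ADAR cells but fell in both other lines, beside 7.8% of all tested and 14.8% of the protein-coding genes. A further 57 (24.9%) rose there and were called in neither other, beside 5.96% and 7.93%.

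The difference between lines was tested directly. YTHDF1 RIP enrichment was larger in YTHDF1-ADAR cells than in the mean of the other lines for 158 members and smaller for 24, beside 26.9% and 42.4% of all tested genes, with a member median of 1.10 on the log2 scale. The 24 smaller differences fell to 10 without YTHDF1 RIP replicate 2 of YTHDF1-ADAR cells, to 14 without its replicate 3 and to 11 without input replicate 2 of that line. They fell to 11 or 12 without YTHDF1 RIP replicate 2, input replicate 1 or input replicate 2 of YTHDF2-ADAR cells, and to 12 or 13 without YTHDF1 RIP replicate 1 or 2 or input replicate 1 of YTHDF3-ADAR cells. All these differences use the 6 libraries that stand apart, and what the fusion, the antibody yield and library quality each contributed cannot be told apart.

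**Figure D2:**
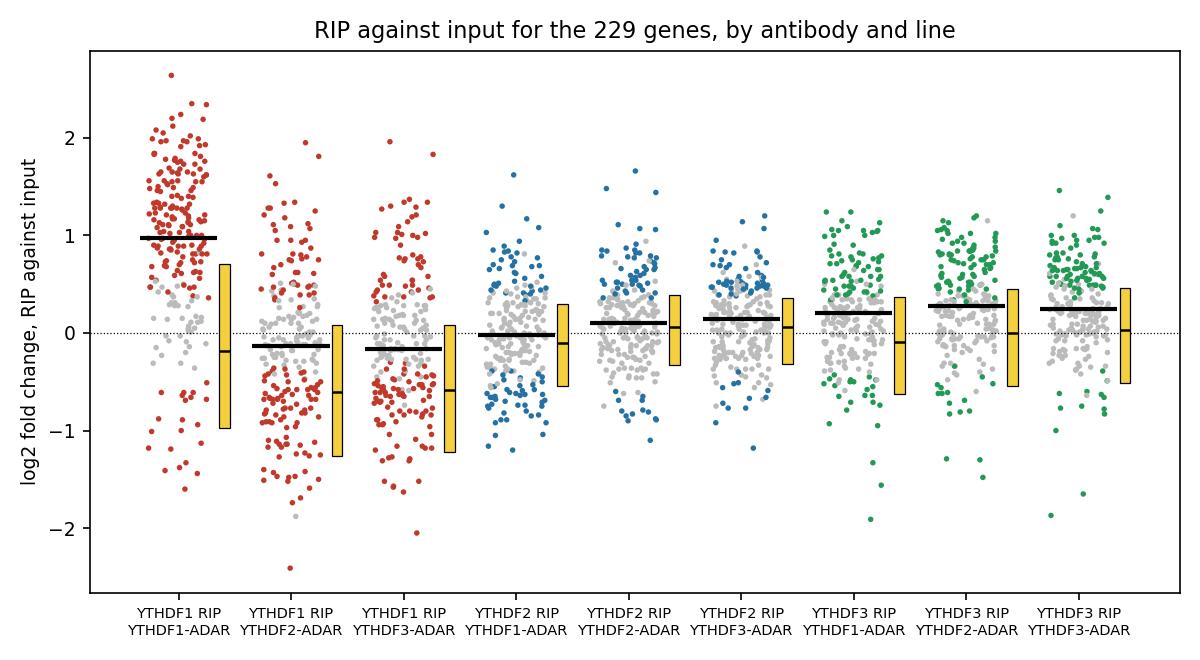
Log2 fold change of RIP over input (y axis) for the 229 members in each RIP and line (x axis); points are genes, coloured where called, black bars are member medians, and the boxes give the quartiles and median of 13665 protein-coding genes. The member median is 0.97 for YTHDF1 RIP in YTHDF1-ADAR cells and between -0.16 and 0.28 in the other 8 comparisons.

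YTHDF2 RIP was closer to input. In YTHDF1-ADAR cells 40 members were higher and 45 lower, beside 8.66% and 15.5% of all tested genes, with a median of -0.02. In YTHDF2-ADAR cells 50 were higher and 13 lower, beside 10.2% and 10.1%, and the median was 0.10. In YTHDF3-ADAR cells 50 were higher and 12 lower, beside 8.98% and 9.93%, and the median was 0.14. Across the 3 lines 28 members (12.2%) were higher in every line, the same share as of the protein-coding genes (12.2%) and beside 5.97% of all tested genes. In every line 8 (3.49%) were lower, beside 12% of the protein-coding genes and 7.16% of all tested. The split in YTHDF1-ADAR cells turned with the scaling: DESeq2's size factors within edgeR gave 63 higher and 28 lower with a median of 0.10, and library totals gave 74 and 15. These scalings shifted the median of all tested genes by 0.12 and 0.20. The member median minus that of all genes was 0.09 and 0.10 under them, against 0.09 under TMM. Without YTHDF2 RIP replicate 3 of that line, which differed from its group in composition, 57 were higher and 30 lower, with a median of 0.07, and the median was 0.11 without input replicate 2, so its sign turned without either library. The 45 lower calls there became 22 without input replicate 2, 26 without input replicate 3, 25 without YTHDF2 RIP replicate 2, and 24 when the 6 libraries that stand apart were left out of the model. In YTHDF2-ADAR cells the 50 higher calls became 32 without YTHDF2 RIP replicate 1, 27 without input replicate 1 and 30 without input replicate 2. In YTHDF3-ADAR cells the 50 higher calls became 33 without YTHDF2 RIP replicate 3, 21 without input replicate 1 and 28 without input replicate 3. The 12 lower calls there became 6 or 7 without YTHDF2 RIP replicate 2 or 3, or input replicate 1 or 3.

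YTHDF3 RIP held more ZNF transcripts than input in each line. In YTHDF1-ADAR cells 66 members were higher and 23 lower, beside 11.5% and 20.1% of all tested genes, with a median of 0.20. In YTHDF2-ADAR cells the counts were 84 and 16, beside 15.2% and 16.9%, with a median of 0.28. In YTHDF3-ADAR cells they were 81 and 13, beside 13.5% and 16.1%, with a median of 0.25. Across the lines 55 members (24%) were higher in every line, beside 8.74% of all tested genes and 17.3% of the protein-coding genes, and 10 (4.37%) were lower in every line, beside 12.6% and 21.4%. The 23 lower calls in YTHDF1-ADAR cells became 11 without input replicate 2, 15 without input replicate 3 or YTHDF3 RIP replicate 3, and 8 without the 6 libraries that stand apart. RIPs of a line share its inputs, so their fold changes over input are not independent of each other.

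No difference of YTHDF2 or YTHDF3 enrichment between lines passed the test for a member. In edgeR's test of each line against the mean of the other 2, 0 of 229 members passed in all 6 tests, where 0, 0.00314% or 0.00628% of all tested genes passed in a direction. The smallest adjusted p of a member was 0.521, for YTHDF3 RIP in YTHDF1-ADAR cells, where 12 members had an unadjusted p under 0.05, beside 7% of all tested genes. In the other 5 tests 1 to 16 members did, beside 2.58 to 5.87% of all tested genes. With no filter on low counts 2 members passed in that test, and DESeq2 gave 0 in all 6. A missed threshold does not show that the lines act alike.

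Single genes show the range of these patterns, starting with those whose mean enrichment was high. ZNF778 (ENSG00000170100, chr16:89217703-89237141, plus strand, GRCh38), a KRAB zinc finger gene, was at 52.3, 59.6 and 63.3 TMM-scaled CPM in the inputs of YTHDF1-ADAR cells. It reached 306, 280 and 216 CPM in YTHDF1 RIP, 195, 223 and 122 CPM in YTHDF2 RIP, and 123, 104 and 99.8 CPM in YTHDF3 RIP of that line. Every RIP library was above every input. The log2 fold changes over input were 2.2 ± 0.20 (SE, adjusted p = 1.64e-11), 1.62 ± 0.19 (6.29e-08) and 0.90 ± 0.19 (0.00028). In YTHDF2-ADAR cells YTHDF1 RIP gave 38.7, 34.4 and 47.5 CPM against 44.4, 49.2 and 45.5 in input, which overlap, while YTHDF2 RIP gave 154, 116 and 106 CPM.

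ZNF618 (ENSG00000157657, chr9:113876282-114056591, plus strand) was enriched by all 3 antibodies in YTHDF1-ADAR cells. Its inputs in YTHDF1-ADAR cells were 57.2, 60.9 and 60.1 CPM, and YTHDF1 RIP gave 275, 281 and 184 CPM. The groups lie far apart, at a log2 fold change of 2.05 ± 0.15 (adjusted p = 2.23e-13). YTHDF2 RIP gave 0.78, 0.79 and 0.83 in the 3 lines and YTHDF3 RIP 1.06, 0.98 and 0.95, each with an SE of 0.14 or 0.15.

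Other genes fell in the same libraries. ZNF143 (ENSG00000166478, chr11:9460319-9528524, plus strand), which encodes an activator that binds promoters and chromatin loop anchors, was at 13.9, 20.7 and 17 CPM in the inputs of YTHDF1-ADAR cells and at 6.1, 5.23 and 8.5 CPM in YTHDF1 RIP. All RIP values lie below all inputs, with a log2 fold change of -1.38 ± 0.19 (adjusted p = 1.6e-07). YTHDF3 RIP gave -0.93, -1.29 and -0.83 in the 3 lines. ZNF706 (ENSG00000120963, chr8:101177878-101206193, minus strand), a small protein with a single finger, fell by 0.89 ± 0.17 in YTHDF1 RIP of YTHDF1-ADAR cells and by 0.52 to 0.77 in YTHDF2 and YTHDF3 RIP of the 3 lines, and passed the test in each.

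ZNF593 (ENSG00000142684, chr1:26169908-26170873, plus strand) had the lowest mean over YTHDF2 and YTHDF3 RIP and YTHDF1 RIP of YTHDF1-ADAR cells. It encodes a nucleolar ribosome assembly factor. Its inputs in YTHDF1-ADAR cells were 21.7, 21.1 and 22.6 CPM, and YTHDF3 RIP gave 6.82, 6.84 and 3.66 CPM, a log2 fold change of -1.91 ± 0.26 (adjusted p = 2.84e-07). YTHDF1 RIP of the same line, at 22.7, 18 and 29.6 CPM, overlapped the inputs. ZNF593OS, its antisense partner, covers 100% of its exon bases, and the counting used no strand, so reads of the pair cannot be told apart.

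**Figure D3:**
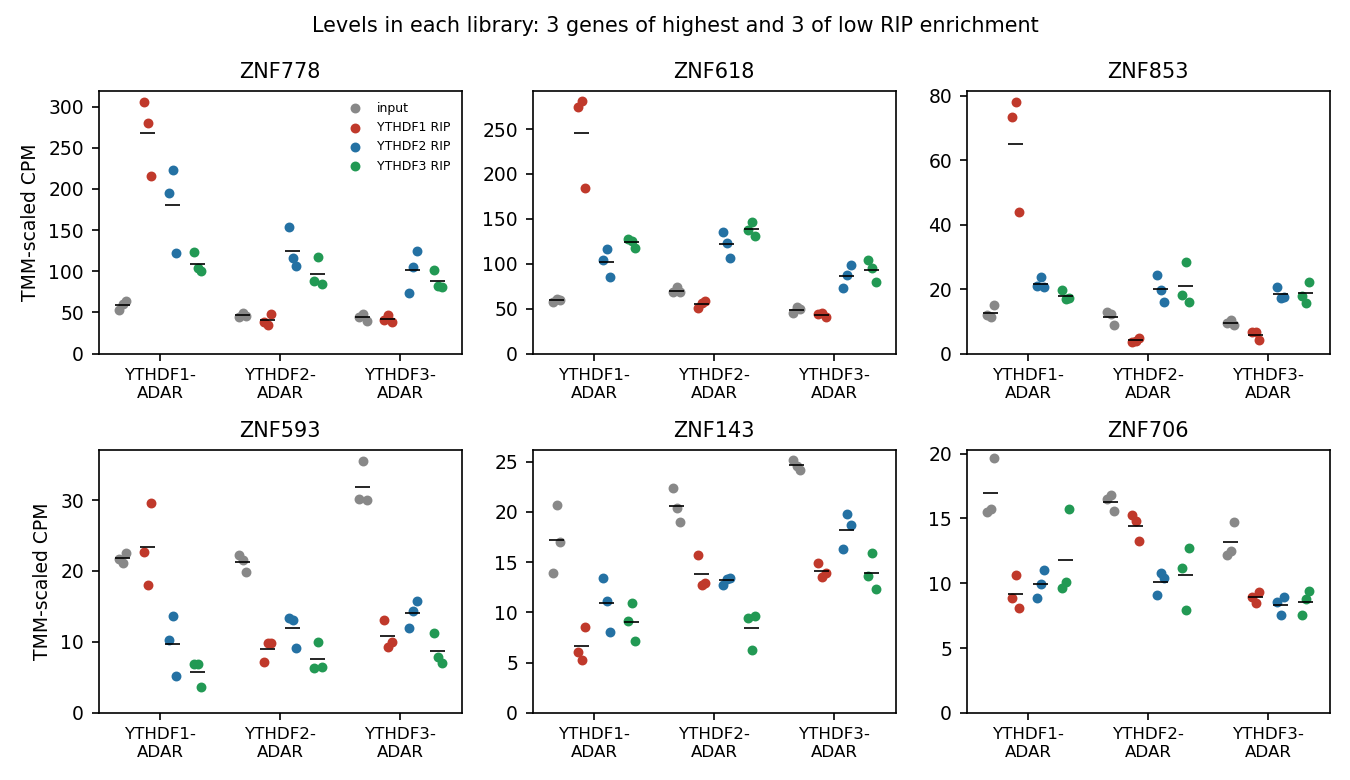
TMM-scaled CPM (y axis, linear, from 0) of ZNF778, ZNF618, ZNF853, ZNF593, ZNF143 and ZNF706 in each library, by line (x axis) and RIP (colour); each point is a library and bars are group means. ZNF853 in YTHDF1-ADAR cells reaches 43.8 to 77.9 CPM in YTHDF1 RIP against 11.2 to 15 CPM in input, while ZNF143 lies at 5.23 to 8.5 CPM against 13.9 to 20.7 CPM.

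ZNF22, ZNF853, ZNF488 and ZNF768 had the 4 highest called differences of YTHDF1 enrichment between YTHDF1-ADAR cells and the other lines. ZNF853 (ENSG00000236609, chr7:6615610-6624290, plus strand) was at 73.4, 77.9 and 43.8 CPM in YTHDF1 RIP of YTHDF1-ADAR cells against 11.9, 11.2 and 15 CPM in input. In YTHDF2-ADAR cells it was at 3.59, 4.02 and 4.67 CPM against 13, 12.3 and 8.72 CPM. The direction was opposite, with no overlap in either line. The log2 fold changes were 2.35 ± 0.22 and -1.47 ± 0.23, and the difference between YTHDF1-ADAR and the mean of the other lines was 3.43 ± 0.27 (adjusted p = 4.46e-13). ZNF768 (ENSG00000169957, chr16:30524004-30526821, minus strand), a nuclear factor that binds repeated MIR elements, went from 142, 134 and 161 CPM in input to 502, 474 and 385 CPM in YTHDF1 RIP of YTHDF1-ADAR cells. In YTHDF2-ADAR cells it went from 164, 116 and 128 CPM to 39.5, 52 and 59.6 CPM. The difference between lines was 2.95 ± 0.23 (adjusted p = 3.5e-13), that of ZNF488 was 3.02 ± 0.29 and that of ZNF22 was 3.44 ± 0.24. ZNF22 shares 37.9% of its exon bases with the pseudogene CEP164P1, so its counts may hold reads of both.

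The 4 lowest called differences ran the other way. ZNF692 (ENSG00000171163, chr1:248850006-248859144, minus strand), which has been described as a repressor of gluconeogenic genes, was at 12.2, 10.4 and 20.2 CPM in YTHDF1 RIP and 43.4, 26.8 and 27.9 CPM in input of YTHDF1-ADAR cells. In YTHDF2-ADAR cells it was at 50.7, 57.4 and 53.5 CPM against 19.2, 16.4 and 17.5 CPM. RIP was below input in the first line and above it in the second, without overlap. The difference between lines was -2.56 ± 0.28 (adjusted p = 1.2e-09), followed by ZNF789 at -2.17 ± 0.22, ZNF519 at -1.75 ± 0.22 and ZNF785 at -1.49 ± 0.26. ZNF789 shares 16.7% of its exon bases with ZNF394, and ZNF785 shares 27.1% with other genes.

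A direct comparison of YTHDF2 with YTHDF3 RIP sets neither input nor any of the 6 libraries that stand apart against another group. Those libraries still enter the shared model through the scaling and the estimate of spread. Averaged over lines, 37 members were higher in YTHDF2 RIP and 94 higher in YTHDF3 RIP, beside 19.7% and 17% of all tested genes, with a median of -0.18 against 0.01 over all tested genes. Protein-coding genes with an input CPM of at least 1 leaned the other way, with 4536 higher in YTHDF2 RIP and 3584 higher in YTHDF3 RIP. The counts within lines were 23 and 58 in YTHDF1-ADAR cells (beside 10.7% and 8.51%), 16 and 53 in YTHDF2-ADAR cells (12.1% and 8.33%), and 12 and 44 in YTHDF3-ADAR cells (9.01% and 5.74%). In every line 9 members (3.93%) were higher in YTHDF2 RIP, beside 6.42% of all tested genes and 12.9% of the protein-coding genes, and 32 (14%) were higher in YTHDF3 RIP, beside 3.78% and 7.47%. Opposite directions in a pair of lines were called for 0 members and for 0.00314% of all tested genes. In YTHDF1-ADAR cells the 23 became 14 without YTHDF2 RIP replicate 2 or without YTHDF3 RIP replicate 3. In YTHDF2-ADAR cells the 16 became 25 without YTHDF3 RIP replicate 2, and the 53 became 34 without YTHDF2 RIP replicate 2. In YTHDF3-ADAR cells the pair of counts became 7 and 22 without YTHDF2 RIP replicate 2, and 6 and 27 without YTHDF3 RIP replicate 2. Scaled to mitochondrial mRNA, which shifted all genes by -0.23, the averaged counts were 0 and 55.

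ZNF391 (ENSG00000124613, chr6:27374615-27403904, plus strand) had the widest gap in favour of YTHDF3. In YTHDF1-ADAR cells it was at 9.83, 7.83 and 7.85 CPM in YTHDF2 RIP, 35.6, 34.7 and 44.4 CPM in YTHDF3 RIP and 13, 18 and 17.4 CPM in input. YTHDF3 RIP lay above input and YTHDF2 RIP below it, with no overlap. Averaged over lines the log2 difference was -1.97 ± 0.11 (adjusted p = 3.04e-16). ZNF595 (-1.61 ± 0.17), ZNF280C (-1.33 ± 0.13) and ZNF280B (-1.14 ± 0.09) followed. ZNF280B (ENSG00000275004, chr22:22484421-22508742, minus strand) was at 20.1, 22.7 and 17 CPM in YTHDF2 RIP of YTHDF1-ADAR cells, at 49.3, 48 and 50.5 CPM in YTHDF3 RIP, and at 18.6, 29.2 and 24.3 CPM in input.

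Fewer genes favoured YTHDF2. ZNF212 (ENSG00000170260, chr7:149239651-149255606, plus strand), a KRAB zinc finger gene, was at 75.2, 62.3 and 84 CPM in YTHDF2 RIP of YTHDF1-ADAR cells against 34.6, 32.4 and 21.7 CPM in YTHDF3 RIP and 30.1, 31.3 and 28.8 CPM in input. YTHDF2 RIP stood alone, and YTHDF3 RIP overlapped the inputs. The difference averaged over lines was 0.97 ± 0.10 (adjusted p = 1.32e-09), followed by ZNF330 at 0.85 ± 0.10, ZNF707 at 0.83 ± 0.12 and ZNF696 at 0.79 ± 0.10. ZNF622 (ENSG00000173545, chr5:16451519-16465800, minus strand), a ribosome maturation factor, rose in YTHDF2 RIP of YTHDF1-ADAR and YTHDF2-ADAR cells (1.17 ± 0.24 and 0.82 ± 0.24) and was at 0.58 ± 0.24 in YTHDF3-ADAR cells (adjusted p = 0.0939).

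Within YTHDF1-ADAR cells YTHDF1 RIP was set against the mean of the other 2 RIPs, again without input. There 174 members were higher and 14 lower, beside 23.2% and 20.5% of all tested genes, with a median of 0.86 against -0.03. Scaling to mitochondrial mRNA, which shifted all genes by -1.56, gave 0 higher and 85 lower, and the members then stood 0.92 above the median of all genes in place of 0.89. ZNF707 (ENSG00000181135, chr8:143684452-143713898, plus strand) was at 135, 125 and 183 CPM in YTHDF1 RIP, 46.8, 44.6 and 33.8 CPM in YTHDF2 RIP and 25.9, 21.5 and 18.7 CPM in YTHDF3 RIP, 3 separate groups with a difference of 2.28 ± 0.16 (adjusted p = 1.16e-13). ZNF469 had the highest difference, 2.31 ± 0.37, from YTHDF1 RIP values of 16.1, 17.8 and 3.16 CPM, of which the last lies far below the others. ZNF330 (ENSG00000109445, chr4:141220887-141234697, plus strand) was lowest, at 10.1, 7.91 and 16.9 CPM in YTHDF1 RIP against 57, 44.7 and 65.9 CPM in YTHDF2 RIP, 32.3, 30 and 24.8 CPM in YTHDF3 RIP and 27.2, 40.9 and 38.2 CPM in input. Its difference was -1.79 ± 0.17 (adjusted p = 9.24e-11).

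The lists of members by role are small, and no test sets them apart from the 229 members, of which 72.5% were higher and 9.17% lower in YTHDF1 RIP of YTHDF1-ADAR cells. All 5 of the chromatin and corepressor partners rose there, with a median of 1.69: ZNF687 (2.12 ± 0.15) and ZNF592 (1.28 ± 0.15), which share a complex with ZMYND8, ZNF217 (1.96 ± 0.16), a partner of the LSD1 and CoREST complex, ZNF516 (1.69 ± 0.12) and ZNF644 (1.08 ± 0.14), a partner of the G9a methyltransferase. In YTHDF1 RIP of the other lines 0 of the 5 were higher and 4 or 3 lower under TMM. Of all tested genes 41.8% and 40.8% were higher there and 33.4% and 32.4% lower. With library totals ZNF516 was at 0.10 in YTHDF2-ADAR cells. YTHDF2 RIP was higher for 3, 2 and 4 of the 5 in the 3 lines and YTHDF3 RIP for 4, 3 and 4, with 0 lower. Of all tested genes 8.66%, 10.2% and 8.98% were higher in YTHDF2 RIP and 11.5%, 15.2% and 13.5% in YTHDF3 RIP. Between 9.93% and 20.1% were lower in these comparisons.

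All 3 members listed for imprint and retroelement repression rose in the same comparison: ZNF445 (1.48 ± 0.11), a keeper of imprints, ZNF10 (1.33 ± 0.17), the source of the KRAB domain used in repression tools, and ZNF202 (1.73 ± 0.21), which is known as a repressor of lipid genes and not for the role that names the list. In YTHDF1 RIP of YTHDF2-ADAR cells 3 of 3 were higher too (median 0.50), and in YTHDF3-ADAR cells 2 of 3. Both counts rest on the 6 libraries that stand apart, where 41.8% and 40.8% of all tested genes were higher. Of the 6 members listed for development and neurons, 4 rose and 1 fell in YTHDF1 RIP of YTHDF1-ADAR cells. ZNF521 (1.97 ± 0.15) and ZNF423 (1.41 ± 0.19), related factors of progenitor cells, and ZNF292 (1.63 ± 0.17) were among the 4. ZNF335, linked to neural progenitor growth, fell by 0.51 ± 0.17.

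Of the 9 members with roles in RNA and the ribosome, 2 rose and 4 fell in YTHDF1 RIP of YTHDF1-ADAR cells. ZNF638 (1.18 ± 0.19) and ZNF106 (0.97 ± 0.14), both RNA-binding, rose. ZNF326 (-1.33 ± 0.25), part of a complex that couples elongation to splicing, ZNF385A (-1.0 ± 0.21), ZNF207 (-0.66 ± 0.18), the kinetochore factor BUGZ, and ZNF346 (-0.61 ± 0.13), which binds double-stranded RNA, fell. ZNF598, the ligase that marks collided ribosomes, was at 0.02 ± 0.16. Of the 4 activators of promoters, ZNF148 (1.17 ± 0.13) and ZNF281 (1.17 ± 0.16), a related pair, rose, and ZNF143 and ZNF76 (-0.69 ± 0.14), another related pair, fell. Scaled to library totals ZNF76 was at 0.42 and ZNF148 at 0.46 in YTHDF1 RIP of YTHDF2-ADAR cells.

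Transcripts of the machinery that KRAB zinc finger proteins recruit, 16 genes that are not members, were split. In YTHDF1 RIP of YTHDF1-ADAR cells 6 of them were higher and 7 lower, with a median of 0.04. Of the protein-coding genes with an input CPM of at least 1, 31.7% were higher and 40.8% lower there. The shares of all tested genes were 20.6% and 28.8%. MORC2 (1.06 ± 0.11, adjusted p = 4.45e-10), an effector of the HUSH silencing complex, and SETDB1 (0.88 ± 0.13), the histone methyltransferase, rose. CBX3 (-1.95 ± 0.22) and CBX5 (-1.62 ± 0.18), the HP1 proteins that bind the methylated histone, and TRIM28 (-0.81 ± 0.21) fell. In YTHDF3 RIP 8 of the 16 were higher in each line and 3, 3 and 2 lower. Of all tested genes 11.5%, 15.2% and 13.5% were higher in these comparisons and 20.1%, 16.9% and 16.1% lower.

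Many members lie in clusters. Joining neighbours whose starts are at most 500 kb apart gave 19 runs of 3 or more members. The 31 members on chromosome 16 had 27 higher and 0 lower in YTHDF1 RIP of YTHDF1-ADAR cells, with a median of 1.28, and 11 higher and 0 lower in YTHDF2 against YTHDF3 RIP. The largest run is on chromosome 16 (run 6, from 30378106 to 31917357, ZNF48 to ZNF267): 11 of its 14 genes were higher and 0 lower in YTHDF1 RIP of YTHDF1-ADAR cells, and 7 were higher in YTHDF2 than in YTHDF3 RIP. In YTHDF1 RIP of YTHDF2-ADAR cells 2 of them were higher and 9 lower. A run at the distal end of the long arm of chromosome 7 (run 15, from 149069641 to 149867479, ZNF786 to ZNF862) had 9 of 10 genes higher and 0 lower in YTHDF1 RIP of YTHDF1-ADAR cells, 0 higher and 4 lower in YTHDF1 RIP of YTHDF2-ADAR cells, and 4, 5 and 8 higher in YTHDF2 RIP of the 3 lines. Over all 229 members 72.5% were higher in YTHDF1 RIP of YTHDF1-ADAR cells and 16.2% in YTHDF2 against YTHDF3 RIP. These shares were 31.7% and 33.2% of the protein-coding genes with an input CPM of at least 1, and 20.6% and 19.7% of all tested genes. In YTHDF1 RIP of YTHDF2-ADAR cells 41.8% of all tested genes were higher and 33.4% lower. In YTHDF2 RIP 8.66%, 10.2% and 8.98% of them were higher in the 3 lines. No test sets a chromosome or run apart from the members.

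Another run on chromosome 7 (run 13, from 64307459 to 65401136, ZNF736 to ZNF92) leaned to YTHDF3: 6 of its 7 genes were higher in YTHDF3 than in YTHDF2 RIP and 0 lower, with a median of -0.67. Over all members 41% were higher in YTHDF3 than in YTHDF2 RIP, beside 26.2% of the protein-coding genes and 17% of all tested genes. Members on chromosome X had 9 of 11 higher there, and those on chromosomes 6 and 15 had 7 of 8 and 6 of 7. These chromosomes were named from all those with members, and no test sets them apart. Their members had median exon lengths of 5.04 kb (X), 5.92 kb (6) and 8.47 kb (15), against 5.58 kb for all members, and the part of length was not tested. Members of a run can be close in sequence, and the counting kept reads that map to several places, so neighbours may share reads and are not independent. Annotated exons of 31 members overlap other genes over more than 20% of their bases. The 116 members that share no exon base with another gene had 84 higher and 13 lower in YTHDF1 RIP of YTHDF1-ADAR cells, with a median of 1.08, and 14 higher and 56 lower in YTHDF2 against YTHDF3 RIP.

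Longer members were more enriched in YTHDF3 RIP, while YTHDF1 RIP of YTHDF1-ADAR cells enriched short and long members alike in number. The members' summed exon length ran from 0.732 to 20.9 kb with a median of 5.58 kb, against 5.16 kb for the 13665 protein-coding genes. Per kb of exon their median input level was 3.33 CPM, against 1.54 for ZNF genes on chromosome 19 and 5.18 for those protein-coding genes. In YTHDF3 RIP of YTHDF3-ADAR cells 10 of the 76 shortest members (0.73 to 4.74 kb) were higher and 8 lower, while 44 of the 77 longest (6.94 to 20.86 kb) were higher and 1 lower, with medians of 0.05 and 0.55. In YTHDF2-ADAR cells the same classes had 9 higher and 12 lower against 45 and 1, and in YTHDF1-ADAR cells 6 and 14 against 37 and 2. YTHDF1 RIP of YTHDF1-ADAR cells had 53 higher and 10 lower among the shortest and 58 and 6 among the longest, with medians of 1.06 and 0.97. Of all tested genes 13.5%, 15.2% and 11.5% were higher in YTHDF3 RIP of YTHDF3-ADAR, YTHDF2-ADAR and YTHDF1-ADAR cells, and 16.1%, 16.9% and 20.1% lower. The shortest members, 13.2% higher in YTHDF3-ADAR cells, were near that share. In YTHDF1 RIP of YTHDF1-ADAR cells 20.6% of all tested genes were higher and 28.8% lower. Across the 229 genes Spearman's rank correlation between exon length and log2 fold change was 0.31, 0.43 and 0.39 for YTHDF3 RIP in the 3 lines, 0.17, 0.15 and 0.15 for YTHDF2 RIP, and -0.06 for YTHDF1 RIP in YTHDF1-ADAR cells. In the 6 libraries that stand apart it was 0.37 and 0.40. Genes are not replicates and share the libraries, and longer genes also had more counts, so these are descriptions without a test. The relation to length was not examined in other genes, so it may not be particular to the members.

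**Figure D4:**
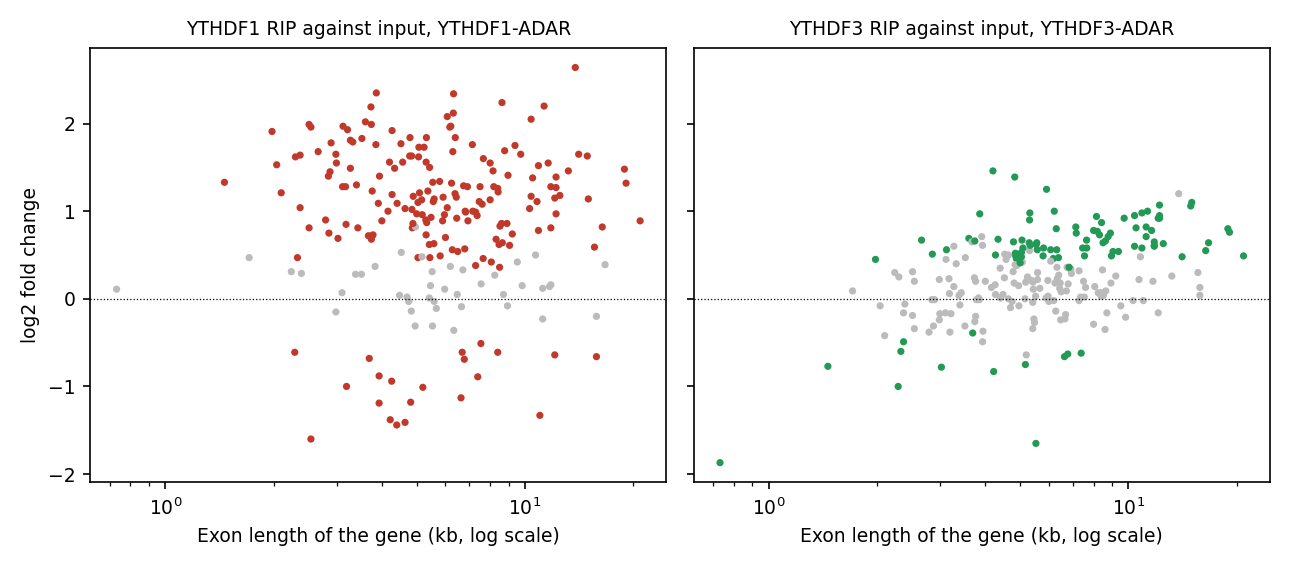
Log2 fold change over input (y axis) against summed exon length (x axis, kb, log scale) for the 229 members in YTHDF1 RIP of YTHDF1-ADAR cells and YTHDF3 RIP of YTHDF3-ADAR cells; each point is a gene, coloured where called and grey where not. The rank correlation is -0.06 in the first panel and 0.39 in the second.

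Some members differed between the inputs of the lines. YTHDF1-ADAR against YTHDF2-ADAR inputs had 9 members higher and 13 lower, beside 13.3% and 4.3% of all tested genes. Against YTHDF3-ADAR inputs 18 were higher and 12 lower, beside 11.3% and 5.1%, and YTHDF2-ADAR against YTHDF3-ADAR had 16 and 6, beside 1.27% and 2.15%. In all, 53 members (23.1%) passed in at least 1 of these comparisons, which share inputs pairwise, near the 25.8% of all tested genes and 24.7% of the protein-coding genes. Single inputs moved these counts. The 9 and 13 became 4 and 3 without YTHDF1-ADAR input replicate 1, and 36 were lower without its replicate 2. Without YTHDF2-ADAR input replicates 1 or 2, 5 or 3 were higher, and 6 were lower without its replicate 3. The 18 and 12 became 5 and 4 without YTHDF1-ADAR input replicate 1, and 6 and 24 without its replicate 2. Without YTHDF3-ADAR input replicates 1, 2 or 3 the 18 became 4, 11 or 11, and the 12 became 7 without replicate 3. The 16 became 5 to 10 and the 6 became 2 or 3 without single inputs. When the 6 libraries that stand apart were left out, the first comparison had 5 higher and 30 lower and the second 5 and 19.

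Promoter sequence is shown for 3 members whose input levels set a line apart and which have an entry in RefSeq's promoter table (GRCh38.p14): ZNF804A, ZNF425 and ZNF502. The sequences are the 250 bases before each gene's start in RefSeq, 5′ to 3′ on the gene's strand, at chr2:184598279-184598528 (plus), chr7:149126325-149126574 (minus) and chr3:44712410-44712659 (plus). Capitals mark CG dinucleotides, the sites of DNA methylation.
ZNF804A: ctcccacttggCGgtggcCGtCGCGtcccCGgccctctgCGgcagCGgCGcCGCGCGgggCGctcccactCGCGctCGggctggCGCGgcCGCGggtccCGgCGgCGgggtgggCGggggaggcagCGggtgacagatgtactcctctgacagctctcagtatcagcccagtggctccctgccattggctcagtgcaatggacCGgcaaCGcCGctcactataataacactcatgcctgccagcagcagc
ZNF425: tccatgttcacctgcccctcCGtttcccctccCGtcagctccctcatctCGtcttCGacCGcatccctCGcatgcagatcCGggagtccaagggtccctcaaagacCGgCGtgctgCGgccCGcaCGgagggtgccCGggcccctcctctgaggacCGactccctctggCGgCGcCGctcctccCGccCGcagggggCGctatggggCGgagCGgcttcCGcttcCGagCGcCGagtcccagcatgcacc
ZNF502: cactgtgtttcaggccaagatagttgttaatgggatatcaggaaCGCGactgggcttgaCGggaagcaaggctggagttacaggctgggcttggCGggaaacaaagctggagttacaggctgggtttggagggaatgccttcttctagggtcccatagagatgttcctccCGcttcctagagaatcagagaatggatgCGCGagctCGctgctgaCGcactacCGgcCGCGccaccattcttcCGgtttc
The windows hold 27, 26 and 13 CG dinucleotides, against a median of 19 over the 190 members with an entry and 11 over all 27305 promoters. A GC box (GGGCGG on either strand) occurs in the windows of ZNF804A and ZNF425 and not in that of ZNF502, and in 61.1% of the members' windows against 42.3% of all. A match is a description of the letters only.

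ZNF804A (ENSG00000170396, chr2:184598529-184939492, plus strand), which lies at a locus associated with schizophrenia, was all but absent from 1 line. Its input counts were 21, 22 and 18 in YTHDF1-ADAR cells, 1, 0 and 0 in YTHDF2-ADAR cells and 87, 109 and 130 in YTHDF3-ADAR cells. The 3 lines do not overlap. Per counted fragment the summed level was 70.2 times higher in YTHDF1-ADAR than in YTHDF2-ADAR cells (95% exact interval 12.1 to 2820, counting error only) and 319 times higher in YTHDF3-ADAR than in YTHDF2-ADAR cells (56.8 to 12600). The log2 fold change between YTHDF1-ADAR and YTHDF3-ADAR inputs was -2.24 ± 0.32. Summed over replicates, ZNF804A had 326 counts in YTHDF3-ADAR inputs against 61 in YTHDF1-ADAR and 1 in YTHDF2-ADAR inputs. Its mean of 1.42 CPM over the 9 inputs thus met the minimum of 1 through the line where it is high. These differences between lines are therefore descriptions, and no p-value is given.

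ZNF462 (ENSG00000148143, chr9:106863166-107013634, plus strand), a developmental factor whose loss causes a craniofacial syndrome, was at 24.3, 26 and 29 CPM in YTHDF3-ADAR inputs against 2.98, 6.12 and 2.38 CPM in YTHDF1-ADAR and 2.03, 1.76 and 2.95 CPM in YTHDF2-ADAR inputs. YTHDF3-ADAR cells stood above both others, with log2 fold changes of -2.78 ± 0.33 for YTHDF1-ADAR against YTHDF3-ADAR (adjusted p = 1.09e-06) and -3.56 ± 0.35 for YTHDF2-ADAR against it (2.03e-08). ZNF707 was higher in YTHDF1-ADAR inputs, at 35.8, 22.8 and 28.8 CPM against 10.7, 9.76 and 12.8 and 10.6, 11.5 and 15 CPM in the other lines. ZNF425 (ENSG00000204947, chr7:149102784-149126324, minus strand) was at 7.26, 9.76 and 9.02 CPM in YTHDF2-ADAR inputs against 4.44, 3.55 and 5.91 CPM in YTHDF1-ADAR and 4.49, 5.18 and 3.35 CPM in YTHDF3-ADAR inputs, with adjusted p of 0.0145 and 0.0207. ZNF502 (ENSG00000196653, chr3:44712643-44723831, plus strand) was at 1.92, 2.66 and 2.78 CPM there against 1.13, 1.6 and 1.46 and 1.07, 1.12 and 1.52 CPM. For ZNF425 and ZNF502 YTHDF2-ADAR inputs lie above both other lines without overlap.

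The editing tables give, for each gene, the number of sites that were edited and 1 score per RIP and input of a line. The level used here is the score per site in percent. In genes with a level in every arm, nonzero in the arms compared, the authors' log odds ratios follow from it within 1e-06. Genes that lack a level were outside this check, and the match can fail there. ZNF395 in YTHDF2-ADAR cells, without a level in YTHDF1 RIP, was at 0.826% in input and 2.38% in YTHDF2 RIP. Its log odds ratio for YTHDF2 RIP was -0.58, so which arm such values belong to is uncertain. With 1 value per group no replicate error can be given, and depth per site is unknown. In YTHDF1-ADAR cells 171 of the 229 members (74.7%) had edited sites, against 52.4% of ZNF genes on chromosome 19 and 58.5% of the protein-coding genes with an input CPM of at least 1. The editing tables name genes by symbol, so that share is over the 13204 different symbols of the 13665 protein-coding genes, of which 454 have none. These 171 had a median of 14 sites, a maximum of 249 and 4589 in all. In YTHDF2-ADAR cells 52 members (22.7%) had sites, with a median of 1.5 and 114 in all, and in YTHDF3-ADAR cells 48 (21.0%), with a median of 2 and 165 in all. In those lines the same protein-coding genes with a symbol stood at 17.6% and 21.6%. In YTHDF1-ADAR cells Spearman's rank correlation of site number was 0.59 with input CPM and 0.26 with exon length (n = 171 genes), both measures that set how many bases are read.

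Members that rose in YTHDF1 RIP of YTHDF1-ADAR cells were more often listed with sites in that line. Sites were listed for 137 of the 166 higher members (82.5%), 23 of the 42 not called (54.8%) and 11 of the 21 lower (52.4%), with medians of 16, 9 and 2 sites and median input levels of 18.4, 15.9 and 23.7 CPM. Across the 171 members the rank correlation between site number and log2 fold change was 0.49. The RIP libraries that give the fold change also supply reads for the sites, so these measures are not independent and no test is given.

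The editing level of the members was above input in each RIP of YTHDF1-ADAR cells. The median level was 3.00% in input, 4.83% in YTHDF1 RIP, 4.52% in YTHDF2 RIP and 3.97% in YTHDF3 RIP, and 161, 148 and 154 of the 171 genes lay above their input (94.2%, 86.5% and 90.1%). For protein-coding genes, with a median of 6 sites, these shares were 82.9%, 78.0% and 76.1%. With at least 3 sites they were 95.1%, 90.9% and 90.2% for members and 90.2%, 86.3% and 82.0% for protein-coding genes. ZNF genes on chromosome 19 with at least 3 sites had 94.7%, 85.5% and 84.2%. By the authors' deposited table, 24, 4 and 3 of the members had an adjusted p under 0.05 in YTHDF1, YTHDF2 and YTHDF3 RIP, beside 8.12%, 1.63% and 1.12% of all genes in it. In YTHDF2-ADAR cells the medians were 1.44% in input, 0.305% in YTHDF1 RIP, 1.63% in YTHDF2 RIP and 2.15% in YTHDF3 RIP, and in YTHDF3-ADAR cells 1.5%, 0.701%, 1.88% and 2.16%, over 50 and 47 genes with levels in every arm. YTHDF1 RIP, the 6 libraries that stand apart, was lowest in both lines.

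Among single genes ZNF276 (ENSG00000158805, chr16:89720400-89740925, plus strand) had the most sites, 249 in YTHDF1-ADAR cells, with levels of 1.72% in input, 3.38% in YTHDF1 RIP, 3.19% in YTHDF2 RIP and 3.12% in YTHDF3 RIP; in the authors' deposited table the adjusted p of the YTHDF1 RIP change was 0.00986. It shares 30.9% of its exon bases with FANCA, so sites there could belong to either gene. ZNF629 had 188 sites (3.12% in input, 3.75% in YTHDF1 RIP), ZNF516 187 (3.12% and 3.97%) and ZNF618 170 (4.12% and 5.01%). ZNF853 had 85 sites at 8.70% in input, 11.2% in YTHDF1 RIP, 12.8% in YTHDF2 RIP and 10.8% in YTHDF3 RIP, and ZNF778 had 126 at 2.72%, 3.35%, 3.73% and 3.45%. Each of these 6 had a higher level in all 3 RIPs than in input. By site number ZNF644 led in the other lines, with 17 sites for the YTHDF2 fusion and 20 for the YTHDF3 fusion. ZNF276 had 10 in each. For ZNF644 neither line had a level in input or in YTHDF2 RIP, so no change against input can be given. Its levels in YTHDF2-ADAR and YTHDF3-ADAR cells were listed as 12.6% and 9.37% in YTHDF1 RIP, and 23.9% and 13.4% in YTHDF3 RIP. Genes that lack a level were outside the check against log odds ratios, so the arms of these values are uncertain.

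**Figure D5:**
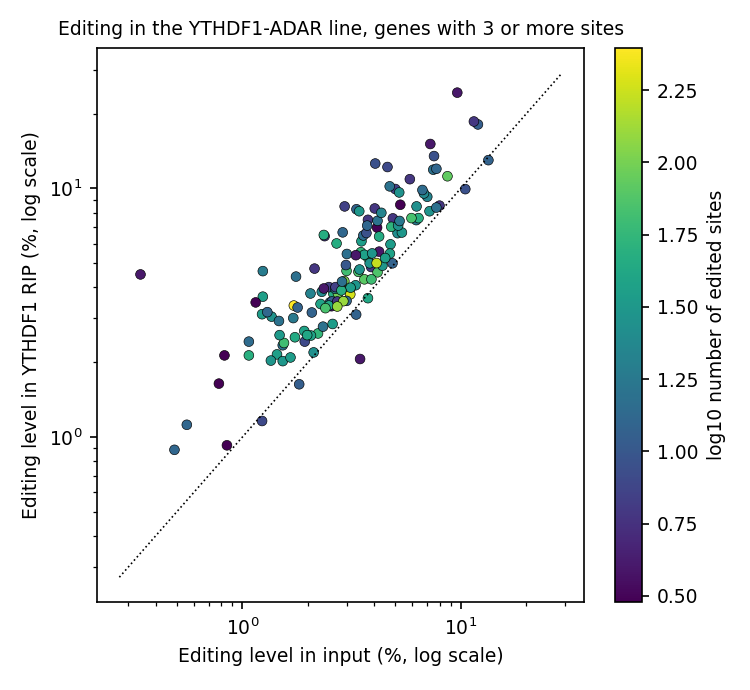
Editing level in YTHDF1 RIP (percent, y axis, log scale) against input (percent, x axis, log scale) for the 143 members with at least 3 sites in YTHDF1-ADAR cells; each point is a gene, its colour gives the log10 number of sites, and the dotted line marks equal levels. Of these genes 136 (95.1%) lie above the line, beside 90.2% of protein-coding genes with an input CPM of at least 1 and at least 3 sites.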

How the data were processed

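RNA from RIP and input was sequenced as rRNA-depleted directional libraries, per the labels' protocols. Reads were aligned with STAR 2.7.7 to GRCh38 and counted with featureCounts 2.0.1, per the submitters' processing notes; per the file headers, counting was by pairs, kept multi-mapping and overlapping reads and used no strand. The deposited values are raw counts per gene. The authors' editing tables hold site numbers, scores, natural log odds ratios and adjusted p-values; their per-site score was turned into percent, and how sites were called is not given in the sources used here. The authors' DESeq2 table, which lists log2 fold changes and a mean of scaled counts (a signal value), supplied only gene names and biotypes.

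Counts of 36 libraries (3 in each of 12 groups) were fitted in 1 model with edgeR 4.0.16 in R 4.3.3 (filterByExpr, TMM scaling, robust quasi-likelihood test, Benjamini-Hochberg limit 0.05 over 31849 genes). SE is the log2 fold change divided by the root of F. All 229 members passed the filter. The 1 row that is no human gene (rat Apobec1, at most 51 counts a library) was left out. CPM in the text are TMM-scaled. The model was tested on simulated data. Alternatives were DESeq2 1.42.0 and its size factors, library totals, mitochondrial mRNA scaling, no low-count filter, a replicate block and omission of libraries.

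The members, role lists, runs and named genes were chosen with earlier results of these data known. Named genes are those of highest and lowest mean enrichment, of the 4 largest called differences in each direction, of the 3 largest in inputs, of most sites, of highest input CPM (ZNF703 at 391, ZNF24 at 214, ZNF664 at 175 and ZNF207 at 142) and of the role lists. Promoter sequences are RefSeq's. Protein sequences and domains were not used here. One marker of the blood list is not reported here.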

Additional observations from a re-analysis of the deposited data

Results flagged for a closer look

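YTHDF1 RIP enrichment of the ZNF genes differed between lines by a direct test of the difference. Enrichment was larger in YTHDF1-ADAR cells than in the mean of the other lines for 158 members and smaller for 24. Of all tested genes 26.9% were larger and 42.4% smaller by the same test. The largest such differences among members, on the log2 scale, were 3.44 for ZNF22, 3.43 for ZNF853, 3.02 for ZNF488 and 2.95 for ZNF768, and the smallest were -2.56 for ZNF692, -2.17 for ZNF789, -1.75 for ZNF519 and -1.49 for ZNF785. Each uses the 6 YTHDF1 RIP libraries of YTHDF2-ADAR and YTHDF3-ADAR cells that stand apart in composition, and their part in these values was not tested.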

How the results depend on the processing

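Across the settings that leave no single library out, 253 counts of members stayed within 1.5 times of those in the report and 71 did not; of the values for named genes 4 turned sign, 91 lost and 83 gained a call. Written as members higher/lower, with the member median log2 fold change in parentheses where it turned sign, these counts differed from those in the report by over 1.5 times or turned sign, and the cause was not tested. Shares of all genes are not given beside them, and a change of scaling moves all genes together. Mitochondrial mRNA scaling shifted all genes by 0.95 for inputs of YTHDF1-ADAR against YTHDF2-ADAR and by -1.63 for YTHDF1 RIP in YTHDF3-ADAR. The member median minus that of all genes was -0.09 and -0.37 there, against -0.10 and -0.37 under TMM. With DESeq2, the counts were 64/75 (0.02) for YTHDF1 RIP in YTHDF2-ADAR, 66/33 (0.10) for YTHDF2 RIP in YTHDF1-ADAR, 51/22 for YTHDF2 RIP in YTHDF2-ADAR and 8/21 for inputs of YTHDF1-ADAR against YTHDF2-ADAR. With DESeq2's size factors in edgeR, the counts were 64/73 (0.02) for YTHDF1 RIP in YTHDF2-ADAR, 63/28 (0.10) for YTHDF2 RIP in YTHDF1-ADAR and 85/14 for YTHDF3 RIP in YTHDF1-ADAR. With mitochondrial mRNA scaling, the counts were 9/36 (-0.13) for YTHDF1 RIP in YTHDF1-ADAR, 2/104 for YTHDF1 RIP in YTHDF2-ADAR, 0/199 for YTHDF1 RIP in YTHDF3-ADAR and 10/0 (0.51) for YTHDF2 RIP in YTHDF1-ADAR. They were 3/0 for YTHDF2 RIP in YTHDF2-ADAR, 0/0 (-0.07) for YTHDF2 RIP in YTHDF3-ADAR, 15/1 for YTHDF3 RIP in YTHDF1-ADAR and 84/0 for YTHDF3 RIP in YTHDF2-ADAR under the same setting. They were 11/1 for YTHDF3 RIP in YTHDF3-ADAR, 106/5 for the YTHDF1 RIP difference between lines, 0/55 for YTHDF2 against YTHDF3 RIP over lines and 0/1 for YTHDF2 against YTHDF3 RIP in YTHDF1-ADAR under the same setting. They were 0/2 for YTHDF2 against YTHDF3 RIP in YTHDF2-ADAR, 0/2 for YTHDF2 against YTHDF3 RIP in YTHDF3-ADAR, 0/85 (-0.67) for YTHDF1 against the other RIPs and 73/0 (0.94) for inputs of YTHDF1-ADAR against YTHDF2-ADAR under the same setting. They were 5/2 for inputs of YTHDF1-ADAR against YTHDF3-ADAR and 0/2 (-0.33) for inputs of YTHDF2-ADAR against YTHDF3-ADAR under the same setting. With no filter on low counts, the counts were 34/91 for YTHDF1 RIP in YTHDF2-ADAR, 49/21 (0.11) for YTHDF2 RIP in YTHDF1-ADAR, 47/7 for YTHDF2 RIP in YTHDF3-ADAR and 68/12 for YTHDF3 RIP in YTHDF1-ADAR. They were 8/11 for inputs of YTHDF1-ADAR against YTHDF3-ADAR and 11/3 for inputs of YTHDF2-ADAR against YTHDF3-ADAR under the same setting. With library totals, the counts were 111/29 (0.40) for YTHDF1 RIP in YTHDF2-ADAR, 88/38 (0.18) for YTHDF1 RIP in YTHDF3-ADAR, 74/15 (0.19) for YTHDF2 RIP in YTHDF1-ADAR and 84/11 for YTHDF2 RIP in YTHDF2-ADAR. They were 90/3 for YTHDF2 RIP in YTHDF3-ADAR, 117/7 for YTHDF3 RIP in YTHDF1-ADAR, 134/6 for YTHDF3 RIP in YTHDF2-ADAR and 127/6 for YTHDF3 RIP in YTHDF3-ADAR under the same setting. They were 21/6 (0.11) for inputs of YTHDF1-ADAR against YTHDF2-ADAR and 30/7 for inputs of YTHDF1-ADAR against YTHDF3-ADAR under the same setting. Without the 6 libraries that stand apart, the counts were 53/24 (0.08) for YTHDF2 RIP in YTHDF1-ADAR, 94/8 for YTHDF3 RIP in YTHDF1-ADAR, 5/30 for inputs of YTHDF1-ADAR against YTHDF2-ADAR and 5/19 (-0.07) for inputs of YTHDF1-ADAR against YTHDF3-ADAR. With no filter, the YTHDF3 difference between lines was called for 2 members in YTHDF1-ADAR cells. With library totals, ZNF148 (0.46), ZNF516 (0.10), ZNF618 (0.17) and ZNF76 (0.42) turned sign in YTHDF1 RIP of YTHDF2-ADAR cells. With at least 3 sites the share of members with edited sites was 62.4%, 5.24% and 8.3% in the 3 lines, and among members with an input CPM of at least 5 it was 84.2% in YTHDF1-ADAR cells.

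Without single libraries, higher and lower members ranged over 161 to 172 and 18 to 21 for YTHDF1 RIP in YTHDF1-ADAR, 27 to 53 and 81 to 118 for YTHDF1 RIP in YTHDF2-ADAR, and 27 to 47 and 76 to 116 for YTHDF1 RIP in YTHDF3-ADAR. The ranges were 28 to 57 and 22 to 40 for YTHDF2 RIP in YTHDF1-ADAR, 27 to 43 and 12 to 15 for YTHDF2 RIP in YTHDF2-ADAR, and 21 to 44 and 6 to 13 for YTHDF2 RIP in YTHDF3-ADAR. The ranges were 56 to 84 and 11 to 20 for YTHDF3 RIP in YTHDF1-ADAR, 57 to 84 and 11 to 16 for YTHDF3 RIP in YTHDF2-ADAR, and 57 to 77 and 10 to 13 for YTHDF3 RIP in YTHDF3-ADAR. The ranges were 155 to 183 and 10 to 24 for the YTHDF1 RIP difference between lines, 34 to 47 and 85 to 99 for YTHDF2 against YTHDF3 RIP over lines, and 14 to 27 and 39 to 63 for YTHDF2 against YTHDF3 RIP in YTHDF1-ADAR. The ranges were 11 to 25 and 34 to 59 for YTHDF2 against YTHDF3 RIP in YTHDF2-ADAR, 6 to 15 and 22 to 42 for YTHDF2 against YTHDF3 RIP in YTHDF3-ADAR, and 164 to 176 and 13 to 15 for YTHDF1 against the other RIPs. The ranges were 3 to 10 and 3 to 36 for inputs of YTHDF1-ADAR against YTHDF2-ADAR, 4 to 17 and 4 to 24 for inputs of YTHDF1-ADAR against YTHDF3-ADAR, and 5 to 10 and 2 to 4 for inputs of YTHDF2-ADAR against YTHDF3-ADAR. The member median turned sign for YTHDF2 RIP in YTHDF1-ADAR without its YTHDF2 RIP replicate 3 (0.07) or input replicate 2 (0.11), over a range of -0.05 to 0.11, and for inputs of YTHDF1-ADAR against YTHDF3-ADAR without YTHDF1-ADAR input replicate 2 (-0.12) or YTHDF3-ADAR input replicate 1 (-0.07), over a range of -0.12 to 0.08. The replicate block gave 166/21 for YTHDF1 RIP in YTHDF1-ADAR and moved no count by over 1.5 times. Of 27 same-numbered pairs 4 had deviations correlated over 0.1 (-0.395 to 0.327), and 11 correlated best with their own number, so the numbers were not taken as pairs.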
